A study of Mus musculus with 6 samples.

Results

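The ubiquitin-specific proteases, or Usp proteins, are the largest class of deubiquitinases, the enzymes that cut ubiquitin from proteins. Their genes were followed here in cultured male mouse germline stem cells. Members were chosen by symbol: a protein-coding gene of GENCODE M21 named Usp and a number, with or without a closing l or x. The family itself was proposed with the fold changes of this comparison already known, so the counts below describe the family and test nothing about it. The rule found 49 genes, and all 49 have a row among the 22432 genes of the authors' deposited table and an adjusted p-value there. Usp9y, the Y-linked relative of Usp9x, falls outside the rule by its closing letter and is given beside the members.

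Total RNA had been sequenced in 6 samples, 3 labelled CDH1+/THY1+ and 3 labelled CDH1-/THY1+, all THY1+ cells at passage 6 to 8 on DR4 feeder fibroblasts in medium with GDNF and FGF. CDH1 is the adhesion protein E-cadherin, and THY1 is a surface protein used to enrich germline stem cells. Each population has 1 sample from each of the cultures RP7, RP5 and WT1. RP7 (age 8 weeks) and RP5 (age 19 days) carry the strain label OCT4/GFP; Dox-OCT4, and WT1 (age 5 weeks) is C57BL/6, so the strain and age labels are the same in both populations. The labels say no more of how the cultures arose, and the p-values measure only the spread between these samples. The values used are the authors' mean normalised count over all 6 libraries and their log2 fold change by DESeq2, with CDH1-/THY1+ as the base. No level per sample or per population was analysed here, so neither the spread within a population nor the overlap of the populations is known. A value written with ± is the log2 fold change with the authors' standard error. The direction rests on the name of the table, because Cdh1 was not analysed here.

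A Usp enzyme holds a catalytic core with a cysteine and a histidine box, and the family members differ in the domains around it, which set the substrate, the partner and the place in the cell. Several Usp enzymes act on histones H2A and H2B, others on p53, on DNA repair factors, on receptors at endosomes or on ubiquitin chains at the proteasome. A small number of family members are known mainly from the testis, among them the X-linked Usp26. The comparison of testis-restricted with widely expressed members below uses a list from such background knowledge (Usp26, Usp29, Usp44 and Usp50), since the table holds no other tissue. Testis-restricted is thus only the name of this list, and whether these genes are confined to testis was not checked.

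The promoters of 6 members are printed to show the CpG content of the start regions of testis-restricted genes beside that of strongly changed, widely expressed ones. They are the 250 bases before the RefSeq start (GRCm38.p6), 5′ to 3′ on the strand of the gene, with CpG dinucleotides in capitals. Usp26 (chrX:51801234-51801483, minus strand), Usp29 (chr7:6730333-6730582, plus strand) and Usp50 (chr2:126783461-126783710, minus strand) are testis-restricted members. Usp37 (chr1:74505822-74506071, minus strand) is the widely expressed relative of Usp26 and Usp29. Usp3 (chr9:66593116-66593365, minus strand) is the lowest of the widely expressed members, and Usp10 (chr8:119910110-119910359, plus strand) is among the highest.
Usp26: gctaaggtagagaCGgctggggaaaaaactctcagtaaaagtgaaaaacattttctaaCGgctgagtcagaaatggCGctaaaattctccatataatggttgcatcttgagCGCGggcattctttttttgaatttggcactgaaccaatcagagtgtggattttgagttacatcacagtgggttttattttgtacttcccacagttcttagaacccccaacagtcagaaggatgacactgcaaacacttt
Usp29: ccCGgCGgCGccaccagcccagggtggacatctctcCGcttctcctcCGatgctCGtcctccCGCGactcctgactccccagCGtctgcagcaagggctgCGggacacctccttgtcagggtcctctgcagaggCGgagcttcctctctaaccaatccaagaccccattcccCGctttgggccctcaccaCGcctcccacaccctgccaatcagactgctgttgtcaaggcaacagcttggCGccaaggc
Usp50: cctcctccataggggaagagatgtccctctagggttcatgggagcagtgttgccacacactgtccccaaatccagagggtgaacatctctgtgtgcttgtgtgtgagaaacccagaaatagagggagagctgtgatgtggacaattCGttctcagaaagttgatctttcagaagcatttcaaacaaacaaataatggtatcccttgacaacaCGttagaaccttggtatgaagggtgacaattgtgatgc
Usp37: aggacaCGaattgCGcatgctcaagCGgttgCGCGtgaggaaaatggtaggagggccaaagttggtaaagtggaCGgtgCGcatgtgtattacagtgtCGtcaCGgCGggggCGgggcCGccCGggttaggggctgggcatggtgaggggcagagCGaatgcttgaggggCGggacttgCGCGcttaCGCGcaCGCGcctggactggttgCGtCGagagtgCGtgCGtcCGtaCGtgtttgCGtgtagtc
Usp3: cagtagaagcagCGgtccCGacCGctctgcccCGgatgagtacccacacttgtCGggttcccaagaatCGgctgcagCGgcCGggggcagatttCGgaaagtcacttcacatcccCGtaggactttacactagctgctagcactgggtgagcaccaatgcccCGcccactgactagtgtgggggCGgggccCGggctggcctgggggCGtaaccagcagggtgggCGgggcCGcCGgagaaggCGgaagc
Usp10: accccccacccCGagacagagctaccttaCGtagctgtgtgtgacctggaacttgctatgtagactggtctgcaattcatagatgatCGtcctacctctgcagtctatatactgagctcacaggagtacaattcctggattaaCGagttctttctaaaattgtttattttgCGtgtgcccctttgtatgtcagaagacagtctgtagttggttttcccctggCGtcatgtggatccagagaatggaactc

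The Usp26 window holds 5 CpG, the Usp50 window 2 and the Usp10 window 6, against 14 for Usp29, 18 for Usp3 and 28 for Usp37. The median over all 32851 promoter windows of the RefSeq table is 6. These windows were not narrowed to genes as abundant as the members, so a high CpG count is not shown to be a trait of the family. Of the 49 members, 37 had a promoter in the RefSeq table, with a median of 24 CpG and a range from 2 in Usp50 to 55 in Usp7. Of the 37, 6 lie at or below the median of all windows: Usp26, Usp50, Usp10, Usp11, Usp51 and Usp54. Of these, Usp26 and Usp54 were lower and Usp10 was higher in CDH1+/THY1+ cells, and the other 3 were not called. The 15 matched members called lower had a median of 25 CpG, the 5 called higher 25, and the 17 not called 22. These medians lay close together. The palindromic cAMP response element TGACGTCA was in none of the 37 windows, against 1.55% of all windows. The palindromic E-box CACGTG was in 3 of 37 (Usp4, Usp16 and Usp31), against 6.02% of all windows. For 29 of the 37, the RefSeq start lies within 300 bases of the outer start in GENCODE. For the other 8 it lies further inside the gene: 53966 bases for Usp7, 38463 for Usp37, 34872 for Usp30, 22709 for Usp54, 17899 for Usp2, 9114 for Usp45, 417 for Usp48 and 363 for Usp25. The CpG counts of these members, among them the highest (Usp7) and one of the lowest (Usp54), therefore belong to an inner start.

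**Figure D1:**
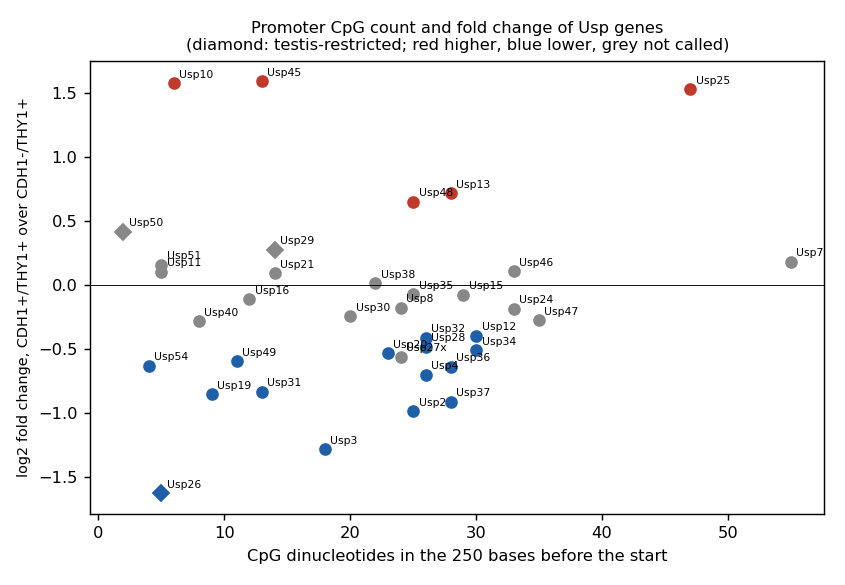
CpG dinucleotides in the 250 bases before the RefSeq start (horizontal axis) against the log2 fold change of CDH1+/THY1+ relative to CDH1-/THY1+ cells (vertical axis), for the 37 members with a promoter in the RefSeq table. Diamonds are testis-restricted members, red and blue mark genes called higher and lower. Usp26, Usp50 and Usp10 sit at 5, 2 and 6 CpG with fold changes of -1.63, 0.42 and 1.58.

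Of the 49 Usp genes, 18 were lower in CDH1+/THY1+ cells, 6 were higher and 25 were not called at an adjusted p under 0.05 in the table that the authors deposited. Over all 19211 genes with an adjusted p-value, 33.5% were called, 16.4% lower and 17.1% higher. Usp genes had a median mean count of 1220, against 202 over these genes, and 46 of 49 reached a mean count of at least 100. Among all genes of that abundance 21.7% were called lower and 22.6% higher. The median log2 fold change of the family was -0.18 against 0.01 over all genes, and 31 members lay below 0 and 18 above. Changes of at least 2-fold were called in 3 members downward (Usp26, Usp3, Usp42) and 3 upward (Usp45, Usp10, Usp25), where 6.54% and 7.47% of all genes passed. The adjusted p-values come from 19743 tests, of which 532, all called, were not analysed here. With them 35.3% of all tests were called. The stricter Benjamini-Yekutieli adjustment was run over the 22330 genes with a p-value here, low-count genes included and the 532 genes missing. Under it 11 members were called lower and 3 higher. The calls of Usp12, Usp13, Usp18, Usp20, Usp22, Usp28, Usp32, Usp48, Usp49 and Usp53 ended, with Usp53 closest to the threshold at 0.0635. The Benjamini-Hochberg adjustment over the same 22330 genes kept all calls, at 18 lower and 6 higher. The change in the set of genes alone therefore ended no call.

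Markers of germ cells, fibroblasts and Sertoli cells were set beside the members. All 12 germ cell markers listed for this purpose fell in CDH1+/THY1+ cells, from Dnd1 at -1.15 ± 0.16 to Tdrd1 at -2.22 ± 0.20 in the table that the authors deposited. Of 18 fibroblast markers with a row, 7 rose, 11 were not called and none fell, with a median of 0.77. Their fold changes ran from -0.08 for Lox to 1.43 for S100a4, and Postn stood at 0.04. Mean counts of these markers ran from 668 for S100a4 to 89729 for Col3a1, so none was near 0 in count. Of 6 Sertoli cell markers with an adjusted p, Clu and Kitl rose, 4 were not called and none fell, at a median of 0.84. Clu and Kitl had mean counts of 1582 and 722. The markers not called were scarce, with mean counts of 72.8 for Wt1, 67.1 for Sox9, 31.4 for Gata4 and 2.59 for Cldn11, and Wt1 stood at -0.42. Over all genes with an adjusted p-value, 17.1% were higher and 16.4% lower. Among those averaging at least 100 counts, as all the germ cell and fibroblast markers do, 22.6% were higher and 21.7% lower. The part of these cell types in the Usp fold changes was not tested, and fewer cells of a type cannot be told apart from less RNA per cell.

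**Figure D2:**
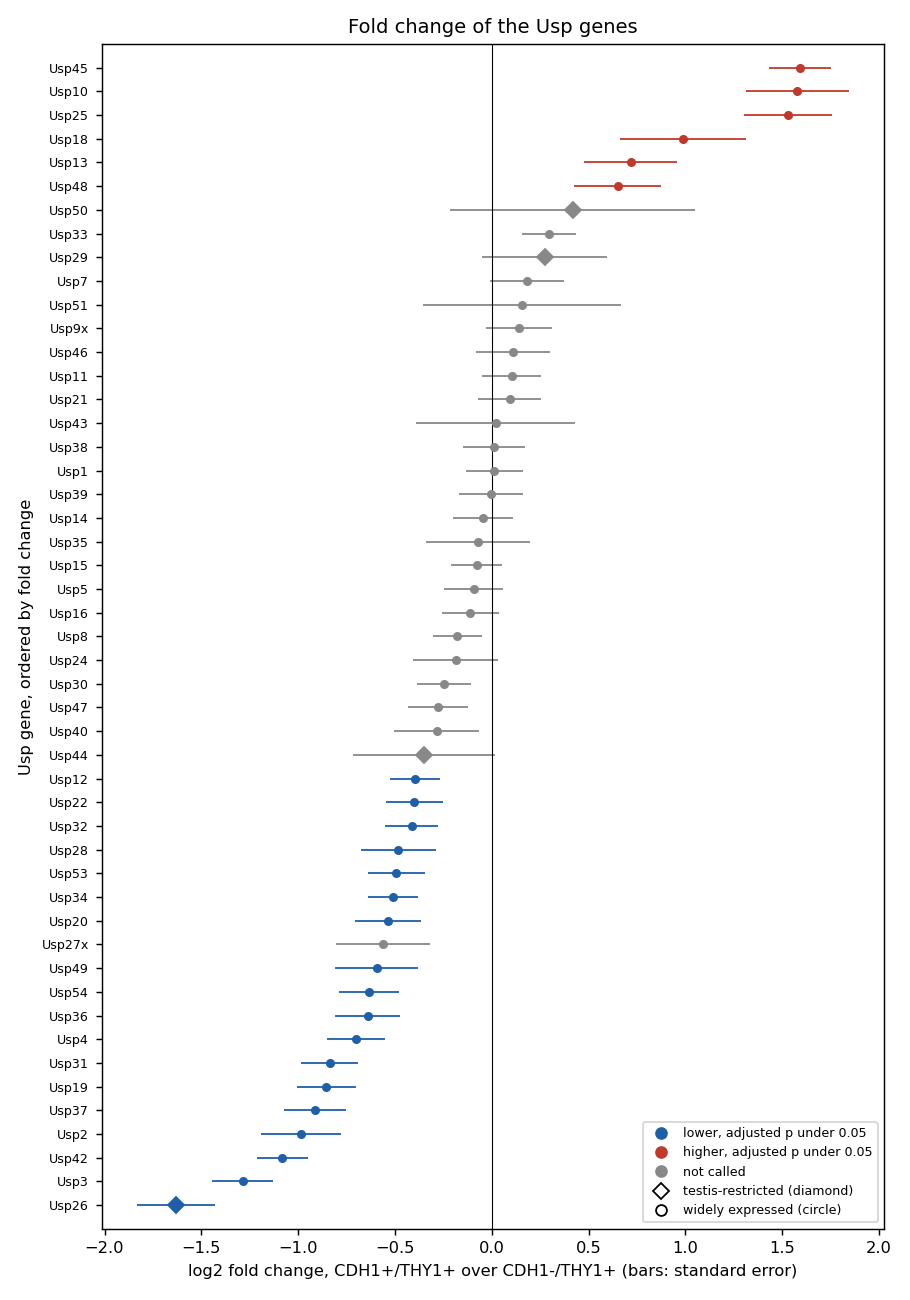
Log2 fold change of each of the 49 Usp genes (horizontal axis, CDH1+/THY1+ over CDH1-/THY1+) with the authors' standard error as a bar, ordered from Usp26 at the bottom to Usp45 at the top. Blue, red and grey mark genes called lower (18), higher (6) and not called (25), and diamonds mark the 4 testis-restricted members, which spread from -1.63 to 0.42.

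Among the testis-restricted members only Usp26 was called. Usp26, an X-linked gene known from testis (GRCm38, chromosome X, 51753959 to 51801233), had the lowest fold change of the family. In the authors' deposited table it stood at a mean count of 3354 and a log2 fold change of -1.63 ± 0.20, or 3.09-fold lower (adjusted p = 4.59e-14). Per exon length Usp26 is also among the most abundant Usp transcripts, at 812 normalised counts per kilobase of exon, the fifth of 49. Usp29, a paternally expressed imprinted gene of the Peg3 domain (chromosome 7, 6730578 to 6967219), had a mean count of 153 and 0.27 ± 0.32 in the table that the authors deposited (adjusted p = 0.554). Usp44, a deubiquitinase of the spindle checkpoint, had a mean count of 155 and -0.35 ± 0.37 in the table that the authors deposited (adjusted p = 0.500). Usp50, a relative of Usp8 described as catalytically inactive, had a mean count of 2.96 and 0.42 ± 0.63 in the table that the authors deposited (adjusted p = 0.659). Usp29, Usp44 and Usp50 had standard errors larger than their fold changes, so a change of the size seen in most called members would not have been detectable in Usp50 at this depth. In Usp29 and Usp44 a change like that of Usp36, at -0.64, could also have been missed. The Usp50 gene also shares 50202 bases with Usp8 on the opposite strand, and whether the reads were counted by strand is not given in the sources used here.

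Of the 4 testis-restricted members, 1 was lower and 0 were higher, and of the 45 widely expressed members 17 were lower and 6 higher. The lower share was thus 25.0% of the testis-restricted members and 37.8% of the others, against 16.4% over all genes and 21.7% over genes averaging at least 100 counts, and 1 gene of 4 is near either background share. The median log2 fold change was -0.04 for the former and -0.18 for the latter. Among members with a mean count of at least 100, which leaves out Usp50, the medians were -0.35 and -0.19, so the order of the groups reversed. The groups differ in abundance, with median mean counts of 154 and 1250, and the difference between them was not tested. Usp2 and Usp42 are widely expressed genes with a high level in testis. In the authors' deposited table Usp42, an enzyme acting on p53 and histone H2B, fell to -1.08 ± 0.13 at a mean count of 1175 (adjusted p = 1.48e-14). Usp2, known for its rhythmic expression and for acting on cyclin D1, fell to -0.99 ± 0.21 at a mean count of 347 in the table that the authors deposited (adjusted p = 1.61e-05). The Usp2 gene shares 28607 bases with Gm49380 on the opposite strand. With Usp2 and Usp42 counted in the testis group its median became -0.67, with 3 of 6 lower, and that of the remaining 43 members -0.11. The contrast of the groups therefore depends on where these 2 genes are counted and on whether the scarce Usp50 is kept.

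**Figure D3:**
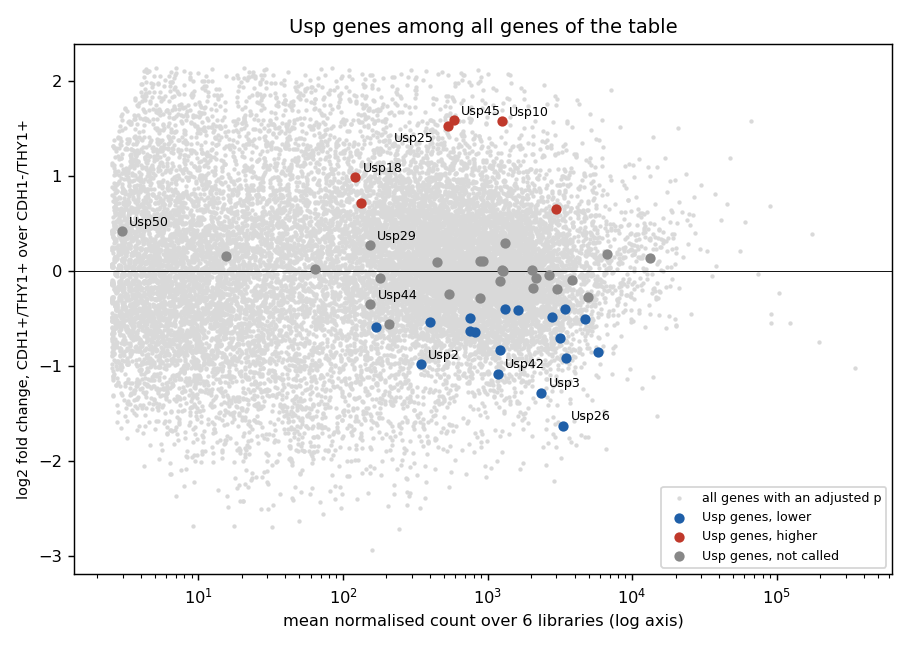
Mean normalised count over the 6 libraries (horizontal log axis) against the log2 fold change of CDH1+/THY1+ relative to CDH1-/THY1+ cells (vertical axis), for all 19211 genes with an adjusted p-value (light grey) and the Usp genes (coloured by call). Usp26 lies near a mean count of 3354, while Usp50, Usp29 and Usp44 lie at 2.96, 153 and 155.

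Of 3 enzymes of the SAGA type 1 was lower and 0 higher, and of 4 other enzymes listed here as directed mainly at histones 2 were lower and 0 higher. Groups of this size, here and below, are only described, beside the 21.7% lower and 22.6% higher among all genes averaging at least 100 counts. Usp48, which also acts on H2A but is listed with the repair enzymes, was higher. Usp3, which removes ubiquitin from H2A and H2B and limits the DNA damage response (chromosome 9, 66514637 to 66593142), had a mean count of 2352, and it fell to -1.29 ± 0.16, or 2.44-fold, in the table that the authors deposited (adjusted p = 1.92e-14). Usp49, an H2B deubiquitinase, fell to -0.59 ± 0.22 (adjusted p = 0.0205), while the H2A enzymes Usp16 and Usp21 stood at -0.11 ± 0.15 and 0.09 ± 0.16 without a call in the table that the authors deposited. The Usp49 gene shares 53172 bases with Gm20517 on the same strand, which had -0.49 at a mean count of 13.17 and was not called. Usp22, the enzyme of the SAGA coactivator complex, fell to -0.40 ± 0.15 in the table that the authors deposited (adjusted p = 0.0222). Its X-linked relatives Usp27x and Usp51, which use the same partner proteins, had -0.56 ± 0.24 (adjusted p = 0.0553) and 0.16 ± 0.51 (adjusted p = 0.851) in the table that the authors deposited. Usp27x had the smallest adjusted p of the members not called, and Usp28, at 0.038, the largest of those called. Usp51 had a mean count of only 15.6, against 207 for Usp27x and 3446 for Usp22.

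Of 5 enzymes of the p53 pathway and DNA repair, 2 were higher, 1 was lower and 2 were not called, where 22.6% of all genes averaging at least 100 counts were higher and 21.7% lower. Usp10, which acts on p53 and binds the stress granule protein G3bp1 (chromosome 8, 119910360 to 119957560), had a mean count of 1254 and rose to 1.58 ± 0.27, or 2.99-fold, in the table that the authors deposited (adjusted p = 5.36e-08). Its standard error was larger than that of 93.5% of the 200 genes of nearest mean count, and it shares 46720 bases with Gm20388 on the same strand. Usp48, an H2A deubiquitinase linked to BRCA1 sites, rose to 0.65 ± 0.22 in the table that the authors deposited (adjusted p = 0.0137), with a standard error larger than that of 91.5% of such genes. Usp28, a stabiliser of MYC that binds 53BP1, fell to -0.48 ± 0.19 (adjusted p = 0.038) in the table that the authors deposited. Usp7, which controls Mdm2 and p53 and is the second most abundant member per exon length, had 0.18 ± 0.19 (adjusted p = 0.501) in the table that the authors deposited, and Usp47, which acts on DNA polymerase beta, had -0.28 ± 0.15 (adjusted p = 0.153).

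Of the enzymes activated by the WD repeat protein Wdr48, Usp1 and Usp46 were close to 0 and Usp12 was lower. Usp1, the enzyme that removes ubiquitin from FANCD2 and PCNA, had 0.01 ± 0.15 at a mean count of 2031 in the table that the authors deposited (adjusted p = 0.963). Usp12 fell to -0.40 ± 0.13 (adjusted p = 0.0093) and Usp46 had 0.11 ± 0.19 (adjusted p = 0.709) in the table that the authors deposited. Among enzymes that recycle ubiquitin, Usp5, which takes apart unanchored chains, and the proteasome-bound Usp14 had -0.09 ± 0.15 and -0.05 ± 0.16 without a call in the table that the authors deposited. Usp13, a less abundant relative of Usp5, rose to 0.72 ± 0.24 at a mean count of 134 (adjusted p = 0.012) in the table that the authors deposited.

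Of 6 enzymes of membranes and endosomes, 3 were lower and 0 higher, against 21.7% lower and 22.6% higher among all genes averaging at least 100 counts. Usp19, an enzyme with a form anchored in the endoplasmic reticulum and the fourth most abundant member per exon length, fell to -0.85 ± 0.15 at a mean count of 5775 in the table that the authors deposited (adjusted p = 4.21e-07). Usp20, which acts on receptors and hypoxia factors, fell to -0.54 ± 0.17 (adjusted p = 0.00734) and Usp32 to -0.41 ± 0.14 (adjusted p = 0.0111) in the table that the authors deposited. The endosomal enzyme Usp8, the mitochondrial enzyme Usp30 and Usp33 were not called, at -0.18 ± 0.13, -0.25 ± 0.14 and 0.29 ± 0.14 in the table that the authors deposited. The Usp30 gene overlaps Svop and Alkbh2 on the opposite strand, which stood at 1.30 and -0.53. Of the relatives Usp4, Usp11 and Usp15, which include enzymes of the spliceosome cycle, Usp4 fell to -0.70 ± 0.15 (adjusted p = 2.87e-05), while Usp11 and Usp15 had 0.10 ± 0.15 and -0.08 ± 0.13 in the table that the authors deposited. The splicing factor Usp39, which lacks the catalytic residues, had -0.00 ± 0.16 in the table that the authors deposited (adjusted p = 0.988).

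The remaining members include Usp45 and Usp25, which with Usp10 at 1.58 had the 3 highest fold changes of the family. Usp45, which acts on the repair nuclease subunit ERCC1 (chromosome 4, 21767156 to 21837872), had a mean count of 585 and the highest fold change of the family, 1.59 ± 0.16, or 3.01-fold, in the table that the authors deposited (adjusted p = 1.32e-20). Its gene overlaps the first bases of Tstd3 on the opposite strand over 57 bases, and Tstd3 rose to 1.80 at a mean count of 111.3 in the table that the authors deposited. Usp25, an enzyme of innate immune and Wnt signalling (chromosome 16, 77013706 to 77116780), had a mean count of 531 and rose to 1.53 ± 0.23, or 2.89-fold, in the table that the authors deposited (adjusted p = 4.94e-10). Usp18, the interferon-induced enzyme that removes ISG15, rose to 0.99 ± 0.32 at a mean count of 122 in the table that the authors deposited (adjusted p = 0.00937). Usp34, which acts on axin in Wnt signalling, fell to -0.51 ± 0.13 (adjusted p = 0.000602), and Usp9x, the most abundant member with 890 counts per kilobase of exon, had 0.14 ± 0.17 without a call (adjusted p = 0.564) in the table that the authors deposited. The Usp34 gene shares 2679 bases with Ahsa2 on the opposite strand, which was called higher at 0.63.

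Usp37, which acts on cyclin A, fell to -0.91 ± 0.16 at a mean count of 3493 in the table that the authors deposited (adjusted p = 1.46e-07). The Usp37 gene shares 24785 bases with Cnot9 on the opposite strand, which had -0.31 at a mean count of 1969 and was not called. In all, 12 of the 49 members overlap another protein-coding gene. The nucleolar enzyme Usp36 fell to -0.64 ± 0.17 (adjusted p = 0.00074) and Usp31 to -0.84 ± 0.15 (adjusted p = 2.37e-07) in the table that the authors deposited. Usp53, a protein of tight junctions, and its relative Usp54 fell to -0.49 ± 0.15 and -0.63 ± 0.15 in the table that the authors deposited (adjusted p = 0.00465 and 0.000305). Usp24, Usp35, Usp38, Usp40 and Usp43 were not called, with fold changes from -0.28 for Usp40 to 0.02 for Usp43. Every called member of the family thus lay at or below -0.40 or at or above 0.65.

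The fold changes of closely related genes were set side by side in 23 pairs listed from background knowledge, some of which share a gene. In 14 pairs 1 gene was called and the other not, in 3 both were lower, in 1 the genes were called in opposite directions and in 5 neither was called. No pair had both genes higher. Among all 49 members 49.0% were called, 36.7% lower and 12.2% higher. With such shares unrelated members would also often differ in call, and the pairs were not set against unrelated ones. Usp26, Usp29 and Usp37 form 1 branch of the family, and stood at -1.63, 0.27 and -0.91 in the table that the authors deposited. The pair called in opposite directions was Usp25 at 1.53 and Usp28 at -0.48, a gap of 2.01 on the log2 scale. Usp45 at 1.59 and its relative Usp16 at -0.11 were 1.70 apart, and Usp2 at -0.99 and Usp21 at 0.09 were 1.08 apart. The pairs called lower together were Usp26 with Usp37, Usp42 with Usp36 and Usp53 with Usp54. The differences within pairs were not tested, since the table gives no value per sample, and reads of near-identical stretches could have been split between relatives.

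**Figure D4:**
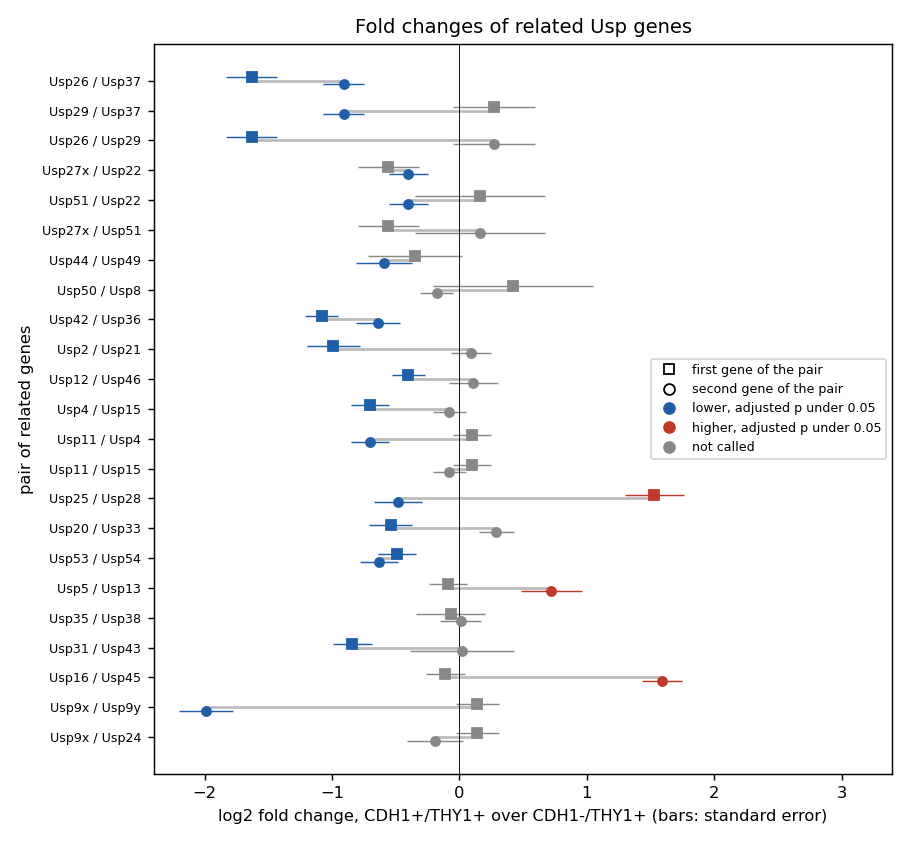
Log2 fold changes between CDH1+/THY1+ and CDH1-/THY1+ cells (horizontal axis) of the 2 genes of each of 23 pairs of related genes, with the authors' standard errors as bars. Squares are the first and circles the second gene of a pair, and grey lines join them. The longest lines are those of Usp9x with Usp9y (2.13) and Usp25 with Usp28 (2.01).

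The widest gap lay between the X- and Y-linked copies of one gene. In the authors' deposited table Usp9y (chromosome Y, 1298961 to 1459782) had a mean count of 598 and fell to -1.99 ± 0.21, against 0.14 ± 0.17 for Usp9x at a mean count of 13390, a gap of 2.13. The Y-linked E1 enzyme gene Uba1y, needed for ubiquitin activation, likewise fell to -1.75 ± 0.21 (adjusted p = 1.04e-15), while its X-linked relative Uba1 had -0.23 ± 0.15 (adjusted p = 0.22) in the table that the authors deposited. Of the 5 X-linked members, Usp26 was lower and the other four, Usp9x, Usp11, Usp27x and Usp51, were not called. Over all 735 X-linked genes with an adjusted p-value, 25.0% were lower and 21.9% higher. Of the 16 such Y-linked genes, Usp9y and Uba1y among them, 7 were lower and 1 higher, with a median of -0.82. A low value is thus not particular to these Y-linked ubiquitin genes.

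Of the neighbours of Usp29 in the Peg3 imprinted domain of chromosome 7, 2 were lower while Usp29 was not called, a difference that was not tested. Zim2 fell to -1.98 ± 0.38 and Zfp264 to -1.12 ± 0.28 (adjusted p = 2.43e-06 and 0.000349), while Usp29 and Zim1 had 0.27 ± 0.32 and 0.20 ± 0.35 with no call in the table that the authors deposited. Zim3, annotated as antisense to Usp29, had -1.14 ± 0.52 at a mean count of 14.0 (adjusted p = 0.0712) in the table that the authors deposited. Peg3 itself was not analysed here.

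Of 13 genes for proteins that work with Usp enzymes, 4 transcripts were lower and 2 higher. These shares of 30.8% and 15.4% stand beside 21.7% and 22.6% among all genes averaging at least 100 counts, so the total called is near the background. Atxn7l3b, a competitor of the SAGA subunit Atxn7l3, and the SAGA subunit gene Atxn7l2 fell to -0.51 ± 0.13 and -0.81 ± 0.18 in the table that the authors deposited. The other SAGA genes of the list were not called, with Atxn7 at -0.46 ± 0.22, Atxn7l3 at -0.04 ± 0.13, Eny2 at 0.03 ± 0.14 and Atxn7l1 at 0.29 ± 0.37 in the table that the authors deposited. Wdr48, the activator of Usp1, Usp12 and Usp46, fell to -0.45 ± 0.13 (adjusted p = 0.00351) in the table that the authors deposited. The Usp10 partner gene G3bp1 rose to 0.56 ± 0.16 (adjusted p = 0.00288) in the table that the authors deposited. Stam, an endosomal partner of Usp8, rose to 0.41 ± 0.13 and Stam2 fell to -0.50 ± 0.13 in the table that the authors deposited.

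Of 39 genes of the other deubiquitinase classes, 7 were lower, 6 higher and 26 not called, with a median of 0.04. The called share was 33.3%, against 33.5% over all genes and 44.3% over genes averaging at least 100 counts. The median mean count of the 39 genes was 803. Uchl1, a deubiquitinase abundant in spermatogonia and also on the germ cell list, fell to -1.75 ± 0.23 (adjusted p = 1.17e-12) in the table that the authors deposited. Vcpip1, a partner of the p97 ATPase, fell to -0.82 ± 0.14, Zranb1, a Wnt-linked enzyme, to -0.74 ± 0.12 and Bap1, an H2A deubiquitinase, to -0.58 ± 0.14 in the table that the authors deposited. Mindy1, specific for long chains, rose to 1.41 ± 0.20 and Mpnd to 1.20 ± 0.18 in the table that the authors deposited (adjusted p = 1.24e-10 and 1.98e-09). The difference between Usp genes and the other classes was not tested.

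**Figure D5:**
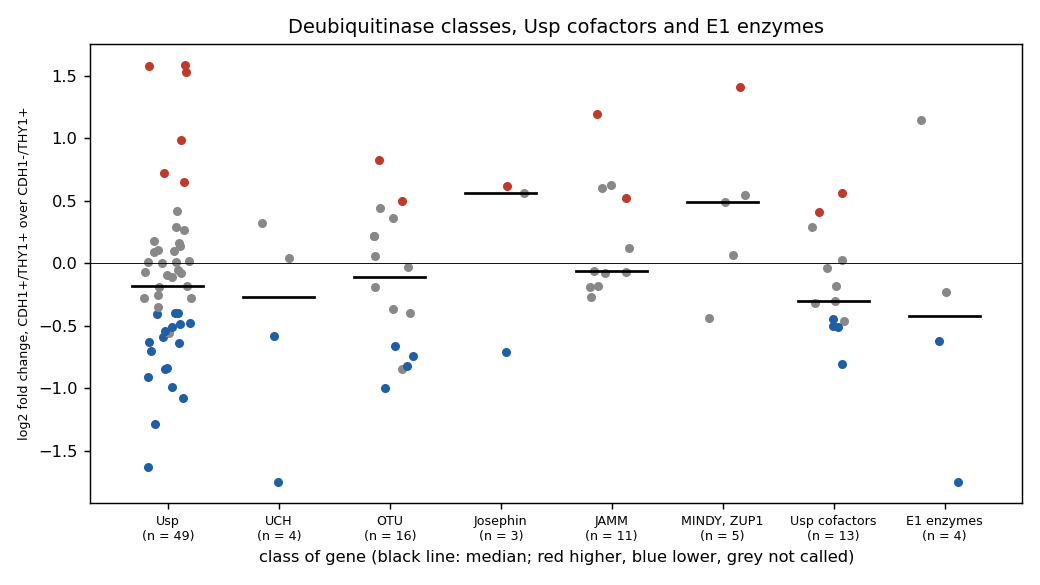
Log2 fold change of CDH1+/THY1+ relative to CDH1-/THY1+ cells (vertical axis) for each gene of the Usp family, the other deubiquitinase classes, Usp cofactors and E1 enzymes (horizontal axis, spread sideways for legibility). Black lines are medians, -0.18 for the 49 Usp genes and -0.42 for the 4 E1 enzyme genes, and red, blue and grey mark higher, lower and not called.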

How the data were processed

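Trimmomatic 0.32, TopHat2 2.1.1, featureCounts (Subread version 1.5.0-p3), DESeq2 (version 1.12.3), R (version 3.3.1) and build GRCm38.p4 are named in the submitters' processing notes. The libraries were ribosomal RNA-depleted and strand-marking, per the labels' protocols; for the annotation, strand setting and model formula the sources used here give nothing. The 1 table used holds, per the file headers, the authors' mean normalised count (a signal over all 6 libraries), log2 fold change and standard error, Wald statistic (a score, equal to their ratio within 2e-07), p-value and adjusted p-value. No standard error exceeded 0.639, also for genes with few reads, so the deposited log2 values were shrunken towards 0 and understate changes of such genes. Depth per sample is unknown; the deposited mean counts sum to 16900379.

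Here symbols and positions came from GENCODE M21, on the coordinates of GRCm38, for 22317 of 22432 rows, matched on the Ensembl identifier. A gene with an adjusted p under 0.05 was called. The adjusted p was empty in 3221 rows. How many tests were adjusted together was worked out from the ratios of p to adjusted p, as the number that gave whole ranks (within 0.02). Counts per kilobase use all exon bases of a gene in GENCODE. Alternatives changed the threshold, adjustment, count filter, fold minimum, centring and testis list. The adjustment functions were tested on simulated data. Python 3.11.15, pandas 2.3.3 and numpy 2.4.6 were used. Members and lists were chosen with earlier results of these data known. All members could be named; testis genes and changes of at least 2-fold are given in full, and up to 3 called genes each way of other lists. Genes of 1 list are not reported here.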

Additional observations from a re-analysis of the deposited data

How the results depend on the processing

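No paired analysis was possible because the table used holds only the comparison and no value per sample; for the same reason no sample was left out in turn. Adjusting by Benjamini-Hochberg with the low-count genes included, the minimum mean count and the centring kept the counts of called Usp genes at 18 lower and 6 higher. An adjusted p under 0.01 left 14 and 4. The Benjamini-Yekutieli adjustment was run over the same set as that Benjamini-Hochberg adjustment, all genes with a p-value, low-count genes included. With it 11 members were lower and 3 higher (10 and 3 among widely expressed members), as were 3 of the other deubiquitinase classes and 1 cofactor on the higher side. It ended the calls of Usp12, Usp13, Usp18, Usp20, Usp22, Usp28, Usp32, Usp48, Usp49 and Usp53. A minimum log2 fold change of 1 left 3 lower and 3 higher members (2 and 3 widely expressed), 2 lower and 2 higher genes of other classes, and 0 cofactors either way. With Usp2 and Usp42 in the testis group, 3 of its members were lower and its median was -0.67. Without Usp44 the median was 0.27. With a mean count of at least 100 required, the median of the testis group was -0.35, against -0.19 for widely expressed members. Depth limits Usp50 and Usp51, at mean counts of 2.96 and 15.6.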

Other observations

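Genes of the Usp17l cluster on chromosome 7, which encode deubiquitinases induced by cytokines in blood cells, lie outside the symbol rule. Usp17lc rose 4.27-fold, with a standard error of 0.63 on the log2 scale (adjusted p = 0.00427), in the table that the authors deposited at a mean count of 6.43, and Usp17la had 1.27 ± 0.63 (adjusted p = 0.104) at 4.83. The family copies are near-identical, so reads could have been split between them. Of the other Usp-like genes, Uspl1, a SUMO protease, fell to -0.38 ± 0.14 (adjusted p = 0.0176), and Cyld, a deubiquitinase of NF-kappaB signalling, had 0.15 ± 0.15 (adjusted p = 0.498) in the table that the authors deposited.

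After the values were seen, the members were also sorted by chromosome. All 5 members on chromosome 9 (Usp2, Usp3, Usp4, Usp19 and Usp28) were lower, as were 4 of 5 on chromosome 11. Of all genes with an adjusted p-value on these chromosomes, 20.1% and 18.4% were lower, with medians of -0.03 on both. Usp4 and Usp19 lie in the same region of chromosome 9, where Usp4 ends at 108392545 and Usp19 starts at 108490602. Of the 4 members on chromosome 4, Usp45 and Usp48 were higher and 0 were lower, where 18.2% of all genes were higher and 18.9% lower.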
